A study of Mus musculus with 8 samples.

Results

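The proteins that dock, prime and fuse synaptic vesicles, other than the synaptotagmins, are encoded by the 37 genes described here, out of 46078 gene entries in the count table. They were taken by symbol: 4 SNARE proteins, 3 proteins of SNARE disassembly, 5 complexins and Doc2 proteins, 5 priming factors, 9 active zone scaffolds and 11 vesicle proteins. All 37 were found, and all 37 passed the filter on low counts among 15859 genes tested. The data are poly(A) RNA-seq counts from the hippocampus of 9-week-old mice labelled C57BL/6J. A group of 4 WT libraries was compared with 4 Cre libraries from mice that carry the transgene Tg(Camk2a-cre)2Gsc (the line is called CamiCre) with the genotype Cre+/-. This transgene drives Cre recombinase with regulatory sequences of Camk2a, a gene of forebrain principal neurons, and the labels name no floxed allele or treatment in either group. Sex, pooling of animals and whether each library is a separate animal are not given in the labels. The p-values therefore set differences between groups against the spread between these libraries. The title of the series names overexpression of Syt2, a calcium sensor of vesicle fusion, and the comparison made here asks whether transcripts of its partners in fusion differ where Syt2 is high. The Cre transgene and high Syt2 occur in the same 4 libraries, so their parts cannot be told apart.

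A synaptic vesicle fuses when the vesicle SNARE synaptobrevin (Vamp genes) zips together with syntaxin (Stx1a) and Snap25 of the plasma membrane. Munc13 proteins (Unc13 genes) open syntaxin and prime the vesicle, RIM and ELKS proteins (Rims and Erc genes) hold vesicles and calcium channels at the active zone, and complexins grip the assembled SNAREs until a synaptotagmin senses calcium. The ATPase Nsf and its SNAP adaptors (Napa, Napb) then take the spent complexes apart, while synapsins, SV2 proteins, synaptophysin and Rab3 sit on the vesicle itself.

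The member genes lie on 15 chromosomes, and 31 of them had a promoter window in the RefSeq table (GRCm38.p6; 250 bases before and 50 after a start; none for Doc2a, Doc2b, Rims2, Snap25, Syn3 and Vamp2). Because genes of neuronal release are textbook carriers of RE1, the element bound by the repressor REST, these windows were searched on both strands for TTCAGCACC and GGACAGCGC, parts of RE1, and for TGACGTCA, the cAMP response element (CRE, a name unrelated to Cre recombinase). The first was found in 3 of the 31 members (9.68%) and in 0.433% of 27025 genes in the table. The second was found in 1 member (3.23%) against 0.477%, and the CRE in 2 members (6.45%) against 2.03%. The matches are printed with the motif in capitals, 5′ to 3′ on the strand of the gene, to show which members share them; for Unc13a both RE1 parts lie just after the start and face the other way.
Syn1, chrX:20921055-20921165, minus strand: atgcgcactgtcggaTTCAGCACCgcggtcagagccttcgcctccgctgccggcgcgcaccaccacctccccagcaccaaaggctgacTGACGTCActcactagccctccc
Ppfia3, chr7:45367042-45367080, minus strand: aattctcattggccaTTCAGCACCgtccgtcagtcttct
Unc13a, chr8:71671727-71671752, minus strand: GCGCTGTCCgcgcccccGGTGCTGAA
Napa, chr7:16098558-16098580, plus strand: ggtggcaggcctgggTGACGTCA
The Syn1 stretch holds the first RE1 part and the CRE, the Ppfia3 stretch the first RE1 part alone, and the Napa stretch a CRE that ends on the start base of its window. Starts here are those of the RefSeq table; for Napa and Syn1 they differ from the GENCODE gene ends printed with the values, and the Napa match lies inside the GENCODE gene. A match is a string of letters and not evidence of binding. The member windows were also richer in G and C, with a median of 62.7% against 52.7% over the table.

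None of the 37 genes passed the threshold between Cre and WT, set at an adjusted p under 0.05 (edgeR quasi-likelihood, Benjamini-Hochberg over all 15859 genes). Of all genes tested, 5 passed, which is 0.0315%, and the smallest adjusted p of a member was 0.999. In the same libraries Syt2 stood at 33.0, 41.5, 34.5 and 32.8 CPM (normalised counts per 1e6 library counts, abbreviated from here on) in WT and 168, 188, 164 and 186 CPM in Cre, with a log2 fold change of 2.31 (SE 0.08). At an unadjusted p under 0.05 there was 1 member, Sv2c, or 2.70% of the list against 3.50% of all genes (2.05% of all genes in that direction), and that share is near the background. DESeq2 and limma also called 0 members past the threshold and 1 at an unadjusted p under 0.05. For 0 of 37 members did the 4 Cre libraries lie wholly above or below the 4 WT libraries, against 2.31% of all genes.

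The data also bound how large a change could have been. For 30 of 37 members (81.1%) the 95% confidence interval of the fold change lay within 1.2-fold in either direction, against 58.0% of all genes, and for 36 it lay within 1.5-fold, against 81.7%. The median standard error was 0.05 on the log2 scale for the members and 0.07 for all genes tested. Counts of a member in a library ran from 99 to 57989. Fold changes were below 0 for 27 members (73.0%) and above 0 for 10, and their median log2 value was -0.03. Over all genes tested 49.8% lay below 0 and the median was 0.0004. The members' median was -0.06 without Cre replicate 2 and -0.02 without WT replicate 3, so its size rests on single libraries. The same held for most members: leaving out 1 library moved the log2 fold change by over 1.5 times for 35 of 37, the exceptions being Sv2c and Syp. In bulk tissue, fewer cells of a type and less RNA per cell cannot be told apart.

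**Figure D1:**
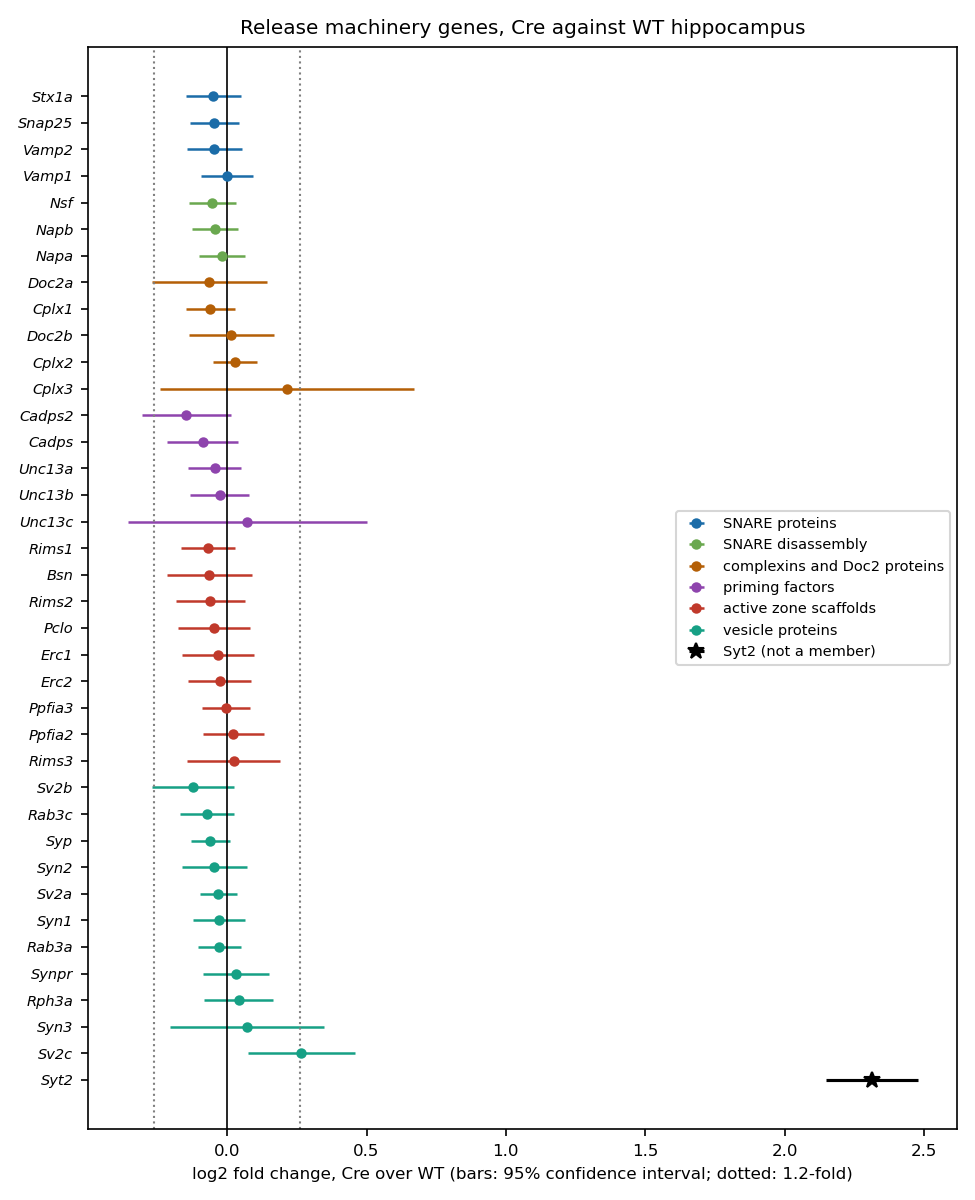
Log2 fold change of Cre over WT for each of the 37 members, coloured by role, with Syt2 for scale; points are estimates from 4 libraries per group, bars the 95% confidence interval, and dotted lines a 1.2-fold change. The members sit near 0, between -0.15 for Cadps2 and 0.27 for Sv2c, and Syt2 lies at 2.31.

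Levels between genes can be compared only per length, here as CPM per kb of annotated exons (GENCODE M21). That length joins the exons of all annotated isoforms and need not be that of the transcripts made here, so the order is approximate. The SD covers only the spread between libraries. On that scale the members spanned from 427 ± 6.18 for Cplx2 to 0.808 ± 0.0814 for Syn3 in WT (SD, n = 4). Cplx2, which encodes the main complexin of forebrain principal neurons, was followed by Snap25 at 277 ± 9.19. Vamp2 (253 ± 8.90), Syp (250.02 ± 6.38) and Cplx1 (245 ± 3.16) came next and lay within their spread of each other. Syn1 (217 ± 7.65) and Rab3a (201 ± 5.50) stood below them. At the low end, Unc13c (3.28 ± 0.786), Sv2c (2.24 ± 0.243), Unc13b (2.16 ± 0.127), Cplx3 (1.73 ± 0.422) and Syn3 were the only members under 5 CPM per kb in WT, and Sv2c and Unc13b did not differ beyond their spread. Active zone scaffolds ran from 53.8 ± 5.32 for Bsn to 5.15 ± 0.254 for Erc1.

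**Figure D2:**
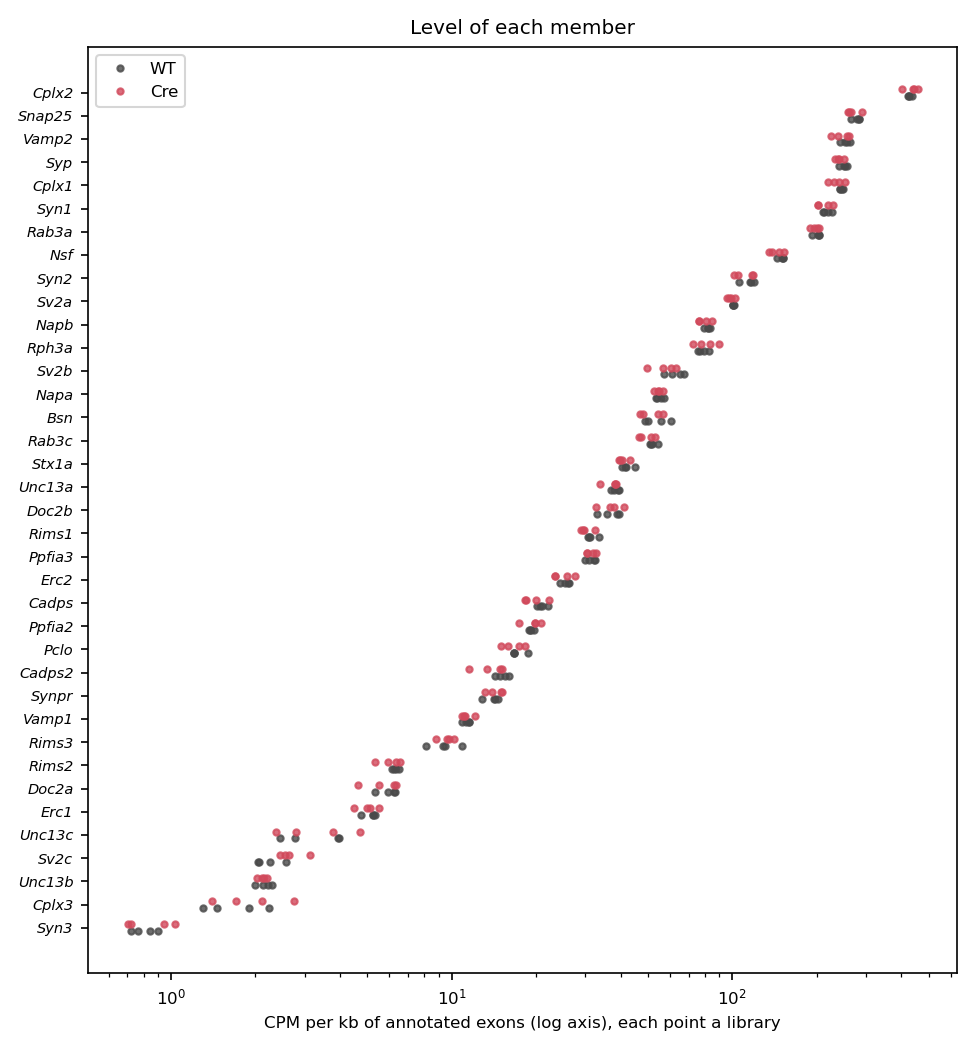
Level of each member in CPM per kb of annotated exons on a log axis, each point a library, WT in grey and Cre in red, ordered by the WT mean. Cplx2 (427 in WT) is at the top and Syn3 (0.808) at the bottom, and the colours overlap in every row.

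The 4 SNARE genes all had fold changes below 0 and none passed the threshold. Snap25 (chr2:136713453-136782428, plus strand, GRCm38), the SNARE anchored to the plasma membrane by palmitate, stood at 1923, 1791, 1887 and 1922 CPM in the WT libraries and 1752, 1976, 1792 and 1769 CPM in the Cre libraries. Its log2 fold change was -0.05 (SE 0.04), with an interval of -8.80% to 2.88% for the relative change. Cre replicate 2 was the highest of the 8 libraries and Cre replicate 1 the lowest, so the groups overlapped fully. Vamp2 (chr11:69088490-69092384, plus strand), the synaptobrevin of most forebrain synapses, stood at 961, 918, 976 and 998 CPM in the WT libraries and 856, 974, 994 and 909 CPM in the Cre libraries, a log2 fold change of -0.05 (SE 0.05). Vamp1 (chr6:125215551-125245964, plus strand), the synaptobrevin known from fast synapses of hindbrain and spinal cord where Syt2 is also the main sensor, stood at 111, 117, 117 and 115 CPM in the WT libraries and 113, 123, 112 and 111 CPM in the Cre libraries. Its log2 fold change of -0.0008 (SE 0.04), with a relative change between -6.32% and 6.63%, is the smallest of the 37 members. Stx1a (chr5:135023482-135051100, plus strand), the syntaxin to which Munc18 binds, stood at 111, 108, 119.6 and 112 CPM in the WT libraries and 106, 106, 115 and 108 CPM in the Cre libraries, a log2 fold change of -0.05 (SE 0.05). WT replicate 3 was its highest library, and the other 3 WT libraries lay within the Cre range.

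The 3 genes of SNARE disassembly also lay just below 0. Nsf (chr11:103821782-103954056, minus strand), the ATPase, stood at 1261, 1201, 1269 and 1252 CPM in the WT libraries and 1227, 1280.1, 1132 and 1160.0 CPM in the Cre libraries, a log2 fold change of -0.05 (SE 0.04) with a relative change between -9.16% and 2.12%. Napb (chr2:148693985-148732467, minus strand), the brain form of the SNAP adaptor, had 589, 559, 576 and 579 CPM in the WT libraries and 537, 596, 567 and 536 CPM in the Cre libraries, a log2 fold change of -0.04 (SE 0.04). Napa (chr7:16098458-16117975, plus strand), the form found in most tissues and a carrier of the CRE, had 216, 203, 205 and 211 CPM in the WT libraries and 205, 214, 198 and 208 CPM in the Cre libraries, a log2 fold change of -0.02 (SE 0.04). For Nsf and Napb the highest library was Cre replicate 2, and the lowest was Cre replicate 3 for Nsf and Cre replicate 4 for Napb.

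Of the complexins and Doc2 proteins, 3 lay above 0 and 2 below. Cplx2 (chr13:54371349-54383917, plus strand) stood at 2147, 2076, 2092 and 2107 CPM in the WT libraries and 2189, 2251, 1977 and 2174 CPM in the Cre libraries, a log2 fold change of 0.03 (SE 0.04). Cplx1 (chr5:108518554-108550024, minus strand), the complexin of many interneurons and hindbrain synapses, stood at 539, 531, 529.5 and 545 CPM in the WT libraries and 503, 551, 525 and 479 CPM in the Cre libraries, a log2 fold change of -0.06 (SE 0.04). Its 4 WT libraries lay between 529.5 and 545 CPM, while the Cre libraries reached both above and below them. Doc2b (chr11:75768966-75796049, minus strand) and Doc2a (chr7:126847416-126852705, plus strand) encode high-affinity calcium sensors linked to spontaneous and asynchronous release. Doc2b had 144, 169, 156 and 172 CPM in the WT libraries and 166, 142, 159 and 179.7 CPM in the Cre libraries, a log2 fold change of 0.01 (SE 0.07). Doc2a had 14.997, 17.7, 17.5 and 16.7 CPM in the WT libraries and 15.4, 13.003, 17.5 and 17.8 CPM in the Cre libraries, a log2 fold change of -0.06 (SE 0.10). Cre replicate 2 was the lowest library for both Doc2 genes and Cre replicate 4 the highest.

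Cplx3 (chr9:57599992-57606281, minus strand), a complexin known from retinal ribbon synapses and from deep cortical neurons, was the member with the widest interval. It stood at 3.85, 6.60, 5.61 and 4.32 CPM in the WT libraries and 4.14, 5.06, 8.08 and 6.24 CPM in the Cre libraries, a log2 fold change of 0.22 (SE 0.21) with a relative change between -15.3% and 59.1%. The value rests on single libraries: it was 0.02 without Cre replicate 3 and 0.10 without WT replicate 1, and 0.37 without WT replicate 2 and 0.35 without Cre replicate 1. Between libraries of 1 group it varied more than any SNARE gene, with a coefficient of variation of 24.5% in WT and 28.9% in Cre. Cplx3 was lowest in WT replicate 1 and Cre replicate 1 and highest in Cre replicate 3. Markers of cortical layer 6b, a layer that adjoins the hippocampus across the white matter, had mean levels of 2.19, 2.68, 2.38 and 2.44 in WT and 1.90, 2.06, 2.54 and 2.81 in Cre (log2 CPM, 4 of 6 markers tested). They too were lowest of their group in WT replicate 1 and Cre replicate 1, but highest in Cre replicate 4. Their summed level was 22.1 to 32.6 CPM in WT and 21.2 to 33.6 CPM in Cre, Ctgf ran from 4.52 to 12.6 CPM in Cre, and their part in the Cplx3 values was not tested.

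Of 5 priming factors, 4 lay below 0 and none passed the threshold. Cadps2 (chr6:23262773-23839421, minus strand) and Cadps (chr14:12372563-12823079, minus strand) encode CAPS proteins, which prime dense-core vesicles as well as synaptic ones. Cadps2 stood at 153, 143, 136 and 149 CPM in the WT libraries and 110.3, 128, 143 and 144 CPM in the Cre libraries, the largest fall in value of the 37, at -0.15 (SE 0.07) on the log2 scale (unadjusted p = 0.0697, adjusted p = 0.999 by edgeR). The Cre libraries split, with replicates 1 and 2 below every WT library and replicates 3 and 4 within the WT range. Cadps stood at 303, 309.9, 332 and 317 CPM in the WT libraries and 302, 335, 277 and 274 CPM in the Cre libraries, a log2 fold change of -0.09 (SE 0.06), and here replicates 3 and 4 of Cre were the low ones. The log2 fold change of Cadps2 ran from -0.19 to -0.072 over the 8 fits that left out 1 library, with the value nearest 0 in the fit without Cre replicate 1, and was -0.04 without WT replicate 1 as well.

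Among the Munc13 genes, Unc13a (chr8:71624417-71671757, minus strand), the isoform of most glutamatergic synapses and the carrier of both RE1 parts, stood at 497, 477, 494 and 466 CPM in the WT libraries and 481, 487, 427 and 482 CPM in the Cre libraries. The 3 Cre libraries other than replicate 3 lay within the WT range, and the log2 fold change was -0.04 (SE 0.04). Unc13b (chr4:43058953-43264871, plus strand), a second isoform used by a subset of hippocampal synapses, had 52.2, 48.5, 50.4 and 45.5 CPM in the WT libraries and 49.9, 49.0, 48.1 and 46.2 CPM in the Cre libraries, a log2 fold change of -0.03 (SE 0.05). Unc13c (chr9:73479422-73968966, minus strand), the isoform known from cerebellar granule cells, had 21.5, 34.8, 34.6 and 24.4 CPM in the WT libraries and 24.6, 20.9, 41.7 and 33.3 CPM in the Cre libraries, a log2 fold change of 0.07 (SE 0.20). Its coefficient of variation was 24.0% in WT and 30.8% in Cre, the widest of the group, and its interval for the relative change, -21.9% to 41.7%, leaves both a rise and a fall possible. Unc13c was lowest in Cre replicate 2 and WT replicate 1. The 6 markers of CA1 pyramidal neurons, 2 of them above 0, had mean levels of 6.495, 6.64, 6.57 and 6.60 in WT and 6.44, 6.26, 6.69 and 6.64 in Cre (log2 CPM). Their means were lowest of their group in the same 2 libraries, but Dcn among them was highest in WT replicate 1 (49.4 CPM). Means of the striatal markers were also lowest of their group there, at 1.99 in WT replicate 1 and 1.94 in Cre replicate 2. The part of either list in the Unc13c values was not tested.

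All 9 active zone scaffold genes had intervals within a 1.2-fold change. Bsn (chr9:108096022-108190384, minus strand), which encodes bassoon, stood at 778, 801, 963 and 887 CPM in the WT libraries and 865, 900.4, 751 and 766 CPM in the Cre libraries, a log2 fold change of -0.06 (SE 0.07). Its relative Pclo (chr5:14514918-14863459, plus strand), piccolo, stood at 376 to 420.1 CPM in WT and 338 to 411 CPM in Cre, with a fold change (log2) of -0.05 (SE 0.06). Both giant scaffolds were highest in WT replicate 3 and second highest in Cre replicate 2, and both were lowest in Cre replicate 3. Rims1 (chr1:22286251-22805994, minus strand), the RIM that tethers vesicles through Rab3, had 229, 225, 247 and 228 CPM in the WT libraries and 218, 238, 217 and 213 CPM in the Cre libraries, a log2 fold change of -0.07 (SE 0.04). Rims2 (chr15:39198261-39684372, plus strand) had 64.0, 67.5, 65.7 and 64.8 CPM in the WT libraries and 55.4, 66.0, 61.6 and 68.2 CPM in the Cre libraries, a log2 fold change of -0.06 (SE 0.06). The 4 WT libraries of Rims2 differed little, with a coefficient of variation of 2.31%, while the Cre libraries spread to both sides of them. Rims3 (chr4:120854816-120896579, plus strand), which encodes a short RIM that lacks the Rab3-binding part, stood at 64.7 to 87.1 CPM in WT and 70.1 to 81.7 CPM in Cre, and WT replicates 1 and 2 marked both ends of its range.

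The ELKS and liprin genes had values as near 0. Erc2 (chr14:27622428-28478537, plus strand), the brain ELKS of the active zone, had 246, 237, 252 and 255.2 CPM in the WT libraries and 251, 267, 228 and 227 CPM in the Cre libraries, a log2 fold change of -0.03 (SE 0.05). Erc1 (chr6:119570796-119848167, minus strand), the widely expressed ELKS, had 85.2, 77.6, 85.6 and 86.5 CPM in the WT libraries and 81.4, 89.8, 72.9 and 83.5 CPM in the Cre libraries, a log2 fold change of -0.03 (SE 0.06). For both, the Cre libraries ranged wider than the WT libraries. Ppfia2 (chr10:106470339-106935952, plus strand), a liprin that helps to place vesicles at the active zone, had 214, 208, 206 and 207 CPM in the WT libraries and 216, 226, 189 and 217 CPM in the Cre libraries, a log2 fold change of 0.02 (SE 0.05). Ppfia3 (chr7:45339122-45367019, minus strand), the liprin gene with an RE1 part in its promoter window, had 237, 244, 257 and 254 CPM in the WT libraries and 241, 258, 240.0 and 251 CPM in the Cre libraries, a log2 fold change of -0.0030 (SE 0.04). Its relative change lay between -5.99% and 5.93%, and the groups covered almost the same range.

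Among 11 vesicle protein genes, Sv2c was the member with the smallest p of all 37. Sv2c (chr13:95954594-96132577, minus strand) encodes the SV2 form known from basal ganglia and brainstem, and an entry point for botulinum toxin A. It stood at 22.0, 24.984, 20.1 and 19.9 CPM in the WT libraries and 30.5, 24.8, 23.8 and 25.6 CPM in the Cre libraries. Cre replicate 1 was above all other libraries, and WT replicate 2 lay inside the Cre range, so the groups overlapped. The means were 21.7 ± 2.36 CPM for WT and 26.2 ± 2.95 CPM for Cre (SD, n = 4 each), a log2 fold change of 0.27 (SE 0.09) with a relative change between 5.25% and 37.3%. The edgeR test gave an unadjusted p of 0.0105 and an adjusted p of 0.999, so the difference did not pass. A 2-sided exact permutation test of log2 CPM gave p = 0.0857. In an edgeR fit without Cre replicate 1 the log2 fold change was 0.18 (unadjusted p = 0.0359 by edgeR). Without both that library and WT replicate 1 it was 0.19 (unadjusted p = 0.0501 by edgeR). All 8 striatal markers had fold changes above 0 (median 0.09), with mean levels of 1.99, 2.29, 2.23 and 2.18 in WT and 2.29, 1.94, 2.44 and 2.34 in Cre (log2 CPM), lowest in Cre replicate 2 and highest in Cre replicate 3, while Sv2c was highest in Cre replicate 1. Of 7 thalamus and habenula markers 6 lay above 0 (median 0.15), with mean levels of 2.68, 2.602, 2.77 and 2.62 in WT and 2.90, 2.76, 2.63 and 2.97 in Cre, highest in Cre replicate 4. The part of either list in the Sv2c values was not tested.

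**Figure D3:**
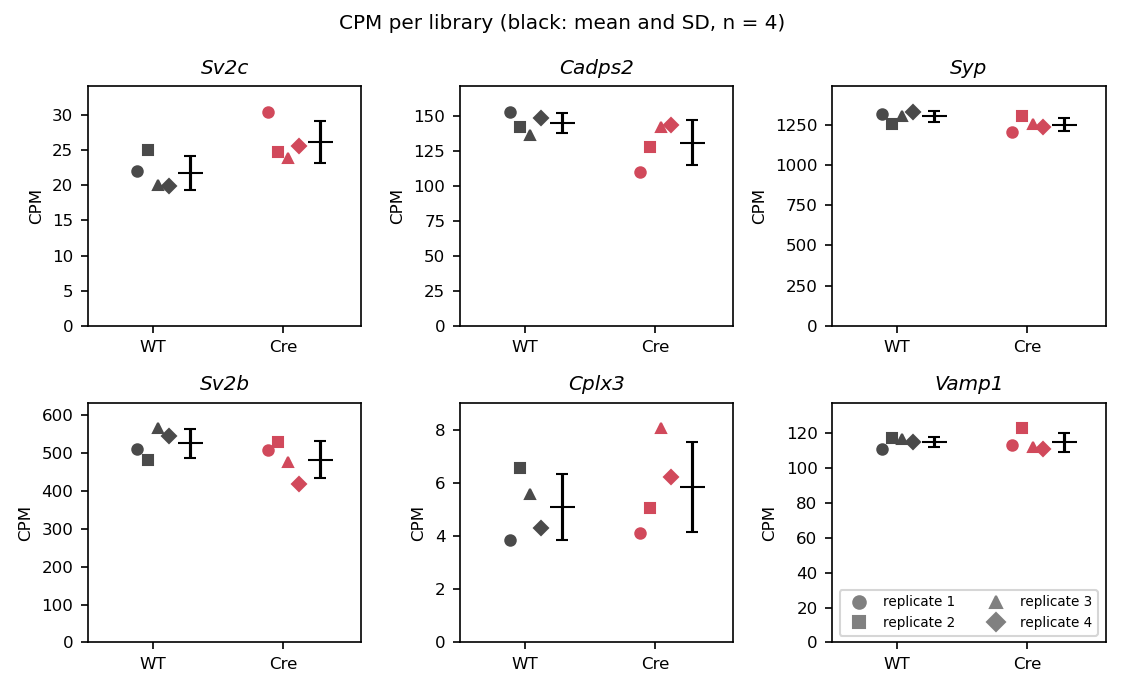
CPM in each library for Sv2c, Cadps2, Syp, Sv2b, Cplx3 and Vamp1, with axes from 0, symbols by replicate number and the mean and SD in black (n = 4 per group). Sv2c stands at 19.9 to 24.984 CPM in WT and 23.8 to 30.5 CPM in Cre, and the groups overlap in each of the 6 genes.

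The other 2 SV2 genes had fold changes of opposite sign to Sv2c. Sv2a (chr3:96181151-96195521, plus strand), the SV2 of nearly all synapses and the binding site of levetiracetam, stood at 465, 468, 471 and 466 CPM in the WT libraries and 445, 473, 459 and 452 CPM in the Cre libraries. Its WT libraries had a coefficient of variation of 0.590%, the smallest of the members, and its interval was the narrowest, a relative change between -6.59% and 2.53% (log2 fold change -0.03 (SE 0.03)). Sv2b (chr7:75114894-75309262, minus strand), the SV2 of glutamatergic terminals, had 510.3, 480.2, 565 and 545 CPM in the WT libraries and 507, 529.9, 475 and 418 CPM in the Cre libraries, a log2 fold change of -0.12 (SE 0.07) with an unadjusted p of 0.0950. Cre replicates 3 and 4 lay below every WT library, and Cre replicates 1 and 2 lay within the WT range. Without Cre replicate 4 the log2 fold change of Sv2b was -0.06.

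Of synaptophysin, synaptoporin, the synapsins, Rab3 and rabphilin, 5 genes lay below 0 and 3 above. Syp (chrX:7638471-7653256, plus strand), a major integral protein of the vesicle, stood at 1319, 1255, 1306 and 1331 CPM in the WT libraries and 1206, 1303, 1252 and 1238 CPM in the Cre libraries. The log2 fold change was -0.06 (SE 0.03), a relative change between -8.58% and 0.659% with an unadjusted p of 0.0847. Cre replicates 1, 3 and 4 lay below every WT library, and Cre replicate 2 lay within the WT range. Synpr (chr14:13284780-13616340, plus strand), synaptoporin, a relative of synaptophysin abundant in mossy fibre terminals, had 138, 133, 121 and 135 CPM in the WT libraries and 132, 143, 124 and 141 CPM in the Cre libraries, a log2 fold change of 0.03 (SE 0.05).

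The synapsins tether vesicles in the reserve pool. Syn1 (chrX:20860511-20921004, minus strand) stood at 699.6, 694, 749.8 and 722 CPM in the WT libraries and 724, 751, 665 and 669 CPM in the Cre libraries, a log2 fold change of -0.03 (SE 0.04). Syn2 (chr6:115134902-115282006, plus strand) stood at 814, 743, 843 and 817 CPM in the WT libraries and 828, 834, 739 and 714 CPM in the Cre libraries, a log2 fold change of -0.05 (SE 0.05). Syn3 (chr10:86055125-86498896, minus strand), known from developing neurons and the lowest member per kb, had 10.4, 11.1, 8.85 and 9.38 CPM in the WT libraries and 12.7, 8.84, 8.62 and 11.7 CPM in the Cre libraries, a log2 fold change of 0.07 (SE 0.13). Each synapsin gene overlaps a Timp gene of metalloproteinase inhibition on the other strand, Timp1 for Syn1, Timp4 for Syn2 and Timp3 for Syn3. In all, 8 of 37 members overlap a named protein-coding gene on the other strand (also Vamp1, Doc2a, Unc13a, Ppfia2 and Rab3a). The kit kept strand, but the strand setting of the counting is not given, so reads of such pairs cannot be assigned with certainty.

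Rab3a (chr8:70754679-70758677, plus strand), the vesicle GTPase that RIM and rabphilin bind, had 449.6, 429, 455 and 454 CPM in the WT libraries and 420.1, 452, 445 and 435 CPM in the Cre libraries, a log2 fold change of -0.03 (SE 0.04). Rab3c (chr13:110054187-110280996, minus strand), a sister GTPase, had 614, 625, 620.5 and 657 CPM in the WT libraries and 569, 619, 641 and 562 CPM in the Cre libraries, a log2 fold change of -0.07 (SE 0.04) (unadjusted p = 0.124). Cre replicates 1 and 4 lay below every WT library for Rab3c, and Cre replicates 2 and 3 did not. Rph3a (chr5:120940499-121010092, minus strand), which encodes rabphilin, stood at 350.3 to 383 CPM in WT and 337 to 415 CPM in Cre, and both ends of that range were Cre libraries, replicate 1 at the low end and replicate 4 at the high end.

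The balance within pairs of related genes was then followed in each library, because gene length and library size cancel in its change between groups. In 0 of 14 pairs did the groups separate, and the mean log2 ratio moved by -0.09 to 0.30 between WT and Cre. Vamp1 over Vamp2 had log2 ratios of -3.11, -2.97, -3.06 and -3.12 in WT and -2.91, -2.99, -3.14 and -3.03 in Cre. The means were -3.06 ± 0.07 in WT and -3.02 ± 0.10 in Cre (SD, n = 4 each), so the balance between these synaptobrevins moved by 0.05, less than the spread between libraries. Cplx1 over Cplx2 had means of -1.97 ± 0.02 in WT and -2.06 ± 0.12 in Cre, and the Cre libraries spread more widely, from -2.18 to -1.91. The widest shift was in Sv2c over Sv2a, with log2 ratios of -4.40, -4.23, -4.55 and -4.55 in WT and -3.87, -4.25, -4.27 and -4.14 in Cre, where WT replicate 2 lay above Cre replicates 2 and 3. Its means were -4.43 ± 0.15 in WT and -4.13 ± 0.19 in Cre.

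The other pairs moved by less than Sv2c over Sv2a. Sv2b over Sv2a had means of 0.17 ± 0.10 in WT and 0.07 ± 0.14 in Cre, Synpr over Syp -3.31 ± 0.09 in WT and -3.21 ± 0.09 in Cre, and Doc2b over Doc2a 3.26 ± 0.08 in WT and 3.35 ± 0.12 in Cre. Cadps2 over Cadps had -1.12 ± 0.12 in WT and -1.18 ± 0.28 in Cre, with Cre replicates 1 and 2 low and replicates 3 and 4 high. Erc1 over Erc2 (-0.0046), Rims2 over Rims1 (0.0033), Syn2 over Syn1 (-0.02), Unc13b over Unc13a (0.02), Ppfia2 over Ppfia3 (0.02), Napa over Napb (0.03) and Rab3c over Rab3a (-0.05) moved by under 0.05 in mean log2 ratio, Cre minus WT. In 3 pairs the shift exceeded 1 SD of the libraries (Cplx1 over Cplx2, Sv2c over Sv2a and Synpr over Syp), and no test was made of these ratios.

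**Figure D4:**
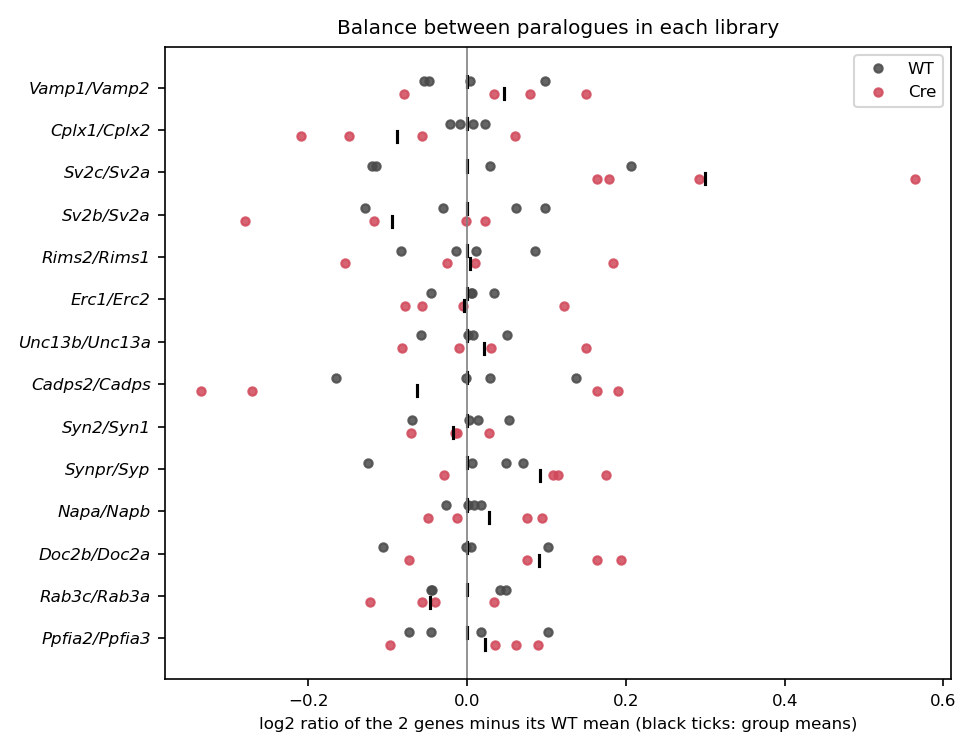
Log2 ratio of the CPM of 2 related genes in each library, minus the WT mean of the pair, WT in grey and Cre in red, with black ticks for the group means. The groups overlap in all 14 pairs, and Sv2c over Sv2a has the widest shift, 0.30.

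Many members were high or low in the same libraries. Cre replicate 2 was the highest of the 8 libraries for 14 of 37 members, and WT replicate 3 for 7. Cre replicate 3 was the lowest for 10, Cre replicate 1 for 9 and Cre replicate 4 for 8. The same counts over all genes are not given here. The median deviation of the members from their mean over the libraries was 0.06 in Cre replicate 2 and -0.04 in Cre replicate 3 (log2 CPM), so the 2 extremes belong to the same group. Of the 9 scaffold genes, 4 were highest in Cre replicate 2 and 4 were lowest in Cre replicate 3. The share of all counts in the 37 genes was 1.64% to 1.69% in WT and 1.595% to 1.72% in Cre. Leaving out Cre replicate 2 raised the number of members with an unadjusted p under 0.05 by edgeR from 1 to 8. They were Sv2c above 0 and Snap25, Nsf, Cplx1, Cadps, Rims1, Syp and Sv2b below 0. None passed after adjustment (adjusted p = 0.996 for each by edgeR). The share of all genes under 0.05 in that fit is not given here, so the 8 have no background beside them.

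**Figure D5:**
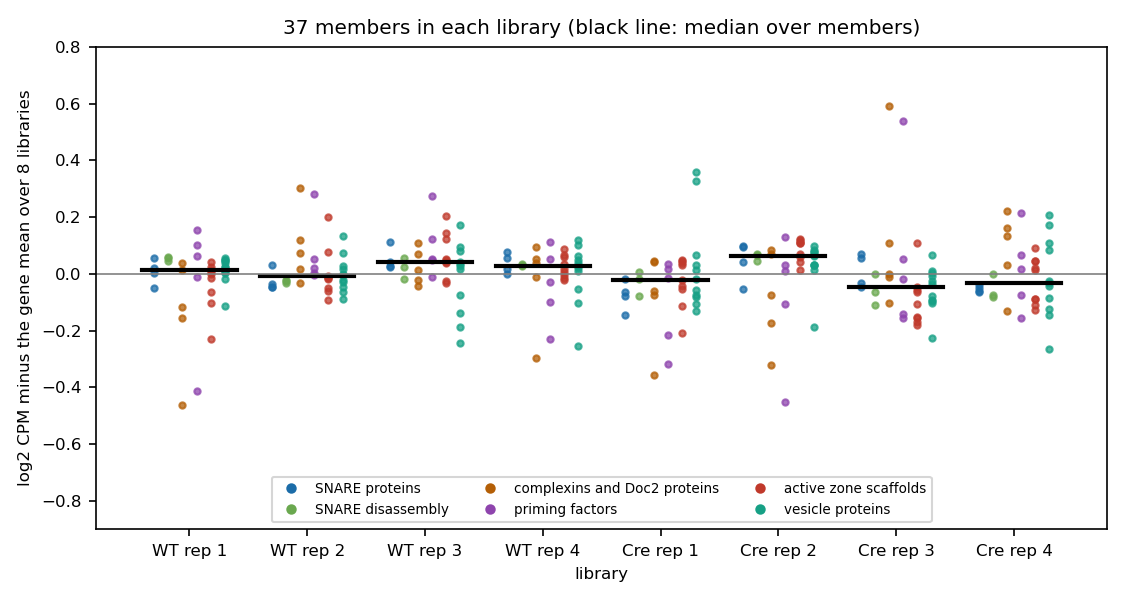
Deviation of each of the 37 members from its own mean log2 CPM over the 8 libraries, with a column of points per role within each library and the median over members as a black line. The medians run from -0.04 in Cre replicate 3 to 0.06 in Cre replicate 2, a wider range in Cre than in WT.

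Libraries held from 21339996 counts in Cre replicate 2 to 27826871 counts in Cre replicate 3. The smallest library thus had the highest median deviation of the members, and the largest library the lowest. The part of library size in these deviations was not tested. Markers of the hippocampal fields were present in all libraries, with summed levels of 531 to 613 CPM in WT and 511 to 687 CPM in Cre for dentate granule neurons, 761 to 853 CPM in WT and 682 to 868 CPM in Cre for CA1 and 277 to 323 CPM in WT and 271 to 335 CPM in Cre for CA2 and CA3. Markers of neurons in general, with 3 of 9 above 0, summed to 5681 to 5890.1 CPM in WT and 5645 to 5919 CPM in Cre. Their mean levels were 9.02, 8.99, 9.04 and 9.04 in WT and 8.99, 9.04, 8.98 and 8.97 in Cre (log2 CPM). The lowest were Cre replicates 3 and 4, which were also the lowest library for 10 and 8 members. Cre replicate 1 was the lowest for 9 members, with a marker mean of 8.992. WT replicate 2, with a marker mean of 8.989, was the lowest for 0 members. Glial markers lay above 0 in 7 of 7 astrocyte, 8 of 8 microglia and 7 of 7 oligodendrocyte genes. Their sums were 4225 to 4501 CPM in WT and 4540.0 to 5249 CPM in Cre, 358 to 384 CPM in WT and 388 to 511 CPM in Cre and 3915 to 4352 CPM in WT and 3933 to 5042 CPM in Cre, each highest in Cre replicate 1. The astrocyte and microglia sums did not overlap between the groups, and the oligodendrocyte sums did. In mean log2 CPM the microglia markers stayed apart (5.30 to 5.39 in WT, 5.42 to 5.81 in Cre). The astrocyte markers overlapped on that scale (7.82 to 7.90 in WT, 7.86 to 8.19 in Cre). WT replicate 1 held 972 CPM of 4 choroid plexus markers, against 24.3 to 32.1 CPM in the other 3 WT libraries and 22.9 to 34.0 CPM in the Cre libraries. Without WT replicate 1 and Cre replicate 1, a choice made after seeing the data, 29 of 37 members lay below 0, with a median of -0.02 and 0 members at an unadjusted p under 0.05 by edgeR or after adjustment. The share of all genes below 0 in the fit without these libraries is not given here. The part of these cell types in the members' values was not tested further.

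Other genes of the vesicle cycle were read from a list of 95, of which 92 were tested. None passed the threshold, 58 lay below 0 and 34 above, and the median was -0.02. At an unadjusted p under 0.05 there were 5 (3 lower and 2 higher), against 3.50% of all genes tested. Rab3gap1, a subunit of the GTPase activator of Rab3, stood at 101, 104, 105 and 105 CPM in the WT libraries and 92.4, 99.9, 99.3 and 92.8 CPM in the Cre libraries, a log2 fold change of -0.11 (SE 0.04), with no overlap between the groups. Stxbp3, a Munc18 relative of other tissues, had 15.028 ± 1.31 CPM for WT and 17.0 ± 1.05 CPM for Cre (SD, n = 4 each), a log2 fold change of 0.18 (SE 0.08). Dnm3, a dynamin of membrane scission, had 124 ± 6.81 CPM for WT and 115 ± 4.12 CPM for Cre, a log2 fold change of -0.11 (SE 0.05). The other two were Stxbp5l (tomosyn-2, -0.14) and Vamp3 (cellubrevin, 0.13), which fall outside the naming rule. Groups without overlap were found for 2 of the 92 genes, against 2.31% of all genes. The second was Dnajc5, the cysteine string protein that chaperones Snap25, at 396, 396, 396 and 402 CPM in the WT libraries and 382, 387, 386 and 386 CPM in the Cre libraries, a log2 fold change of -0.04 (SE 0.03) with an unadjusted p of 0.153, named after its values were seen. By role, 16 of 19 genes of vesicle filling and other vesicle proteins lay below 0 (median -0.04), as did 21 of 31 of endocytosis (-0.03), 12 of 23 of other active zone and Rab proteins (-0.002) and 9 of 19 of other SNAREs and their binding proteins (0.002).

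The authors' deposited table lists all 37 members. Its log2 fold changes had the same sign as those above for 37 of 37 and differed by at most 0.007, since it was made from the same libraries. Of its p-values, 1 was under 0.05 among the members in the authors' deposited table.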

How the data were processed

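The deposited table holds raw counts per gene symbol from 8 libraries. Per the submitters' processing notes, the authors used STAR 2.6.1d, featureCounts and edgeR 3.11 with GRCm38; the annotation release and strand setting: not given in the sources used here. The authors also deposited their comparison as log2 fold changes, p-values (whether adjusted is not stated), log2 abundance, and a signed linear fold and an abundance, each treated as a score and not used. Members, roles and lists were chosen with earlier results of these data known. Here all 15859 genes kept by filterByExpr (minimum count 10, minimum total 15), holding at least 99.9% of each library's counts, were fitted with edgeR 4.0.16 (R 4.3.3): TMM factors, quasi-likelihood test, no covariate, 2-sided, Benjamini-Hochberg threshold 0.05. The 272 repeated symbols stayed separate entries. The standard error is the log2 fold change over the root of F. Library totals of 21339996 to 27826871 limit precision. Intervals are for the fold change and rest on the spread between libraries. Alternatives were DESeq2 1.42.0, limma 3.58.1 voom, other factors and filters, a replicate block and leaving out libraries. By rule, values per library are given for members with an unadjusted p under 0.05, groups that do not overlap, the highest or lowest level of their role or a place in a pair, and ranges for the rest; of other pathway genes the 3 with the smallest p are named, and outside both only Syt2 and markers that move with a member. Positions and exon lengths come from GENCODE M21 (GRCm38), promoter windows from RefSeq (GRCm38.p6). Protein sequences were not used here.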

Additional observations from a re-analysis of the deposited data

Results flagged for a closer look

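In 4 of 104 sets of 4 libraries, 1 library stood far from the other 3 by Dixon's ratio, and chance alone gives about 1 in 20. Unc13a was at 427 CPM in Cre replicate 3, against 481 to 487 CPM for the rest of the group. Rims1 was at 247 CPM in WT replicate 3, against 225 to 229 CPM in the other WT libraries. Pclo was at 420.1 CPM in WT replicate 3, where the other 3 WT libraries were each at 376 CPM. Erc1 was at 77.6 CPM in WT replicate 2, below the 85.2 to 86.5 CPM of the others.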

How the results depend on the processing

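Under every alternative run, 0 of 37 members and 0 of the 92 other pathway genes passed the threshold, with a smallest adjusted p among members of 0.891 over the edgeR, DESeq2 and limma fits, and 4 to 7 of all genes passed. Of 555 member values under the alternatives 524 kept their sign and side of the threshold and 31 changed sign, and 23 members never changed sign. The number of members with an unadjusted p under 0.05 was 1, 3 with no filter on low counts, 0 with WT replicate 1 and Cre replicate 1 both left out (chosen after seeing the data), and 1 to 8 with 1 library left out (8 without Cre replicate 2, 4 without Cre replicate 3, 3 without WT replicate 2, 2 without Cre replicate 4). For the other pathway genes it was 5, 3 with DESeq2 and 0 to 14 with 1 library left out (0 without WT replicate 3, 14 without Cre replicate 2, 1 without Cre replicate 1 or Cre replicate 4, 3 without WT replicate 4). The share of all genes under 0.05 in each of these fits is not given here, so these counts have no background beside them. The causes were not tested. Vamp1 was 0.000037 (log2) with RLE size factors and 0.00048 with at least 1 CPM in 4 libraries. With WT replicate 1 and Cre replicate 1 both left out Napa was 0.0026, Doc2b -0.044, Rims3 -0.0045 and Syn3 -0.012. With 1 library left out, log2 fold changes ran from -0.034 to 0.016 for Vamp1, -0.035 to 0.0013 for Napa, -0.12 to 0.018 for Doc2a, -0.038 to 0.071 for Doc2b, -0.061 to 0.0046 for Unc13b, -0.13 to 0.21 for Unc13c, -0.045 to 0.10 for Rims3, -0.079 to 0.020 for Erc1, -0.074 to 0.0055 for Erc2, -0.011 to 0.074 for Ppfia2, -0.025 to 0.016 for Ppfia3, -0.034 to 0.16 for Syn3, -0.0054 to 0.071 for Synpr and -0.011 to 0.089 for Rph3a. With the replicate number as a block, 6 genes, 0 members and 1 member at an unadjusted p under 0.05 (Sv2c) were found. Same-numbered libraries had correlations of their deviations of -0.11 to 0.20, against -0.18 to 0.18 for other numbers. The highest value of all was that of WT replicate 1 with Cre replicate 1. For 1 of 4 WT and 1 of 4 Cre libraries the best correlation was with their own number. These few correlations cannot decide whether same-numbered libraries are paired. Cplx3, the member with the fewest counts (99 in its lowest library), also had the widest interval.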
